A study of Mus musculus with 5 samples.

Results

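The 10 genes described here, Ccl2, Ccl3, Ccl4, Ccl7, Ccl12, Cxcl2, Cxcl10, Il1a, Il1b and Tnf, encode secreted inflammatory signals that microglia can make. They were chosen by name and are 10 of the 32285 features in the deposited tables, and each had at least 1 UMI (unique molecular identifier, the tag that marks 1 captured RNA molecule) in all 5 libraries. The list was drawn up with earlier results from the same libraries in view, so the members' levels in microglia and border macrophages and their genotype contrast in microglia are given as a description that supports nothing further. The libraries were made from hippocampus of mouse pups at postnatal day 1, with 3 libraries from wild-type pups and 2 from Trem2 knockout pups, each holding cells of 2 pooled pups. Wild-type replicate 2 and knockout replicate 2 held 2 males, and the other libraries held a male and a female. The labels name no strain or allele, and do not say whether pups of different libraries were littermates, so p-values measure the spread between these pools. Tissue was digested with warm papain before cells were captured in droplets and their RNA was counted at the 3' end.

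Chemokines are small proteins that draw cells bearing the matching receptor. CCL2, CCL7 and CCL12 act on CCR2 of monocytes, CCL3 and CCL4 draw monocytes and T cells, CXCL2 on CXCR2 of neutrophils, and CXCL10, an interferon-inducible chemokine, on CXCR3 of T cells. IL-1α, IL-1β and TNF are cytokines that switch on NF-κB in cells that receive them, and their own genes are NF-κB targets in myeloid cells. TREM2 is a lipid-binding receptor of microglia and other macrophages, and border macrophages are the brain's other resident macrophages, in the meninges, choroid plexus and perivascular spaces.

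Of the 10 genes, 5 lie in 2 clusters on chromosome 11. In GENCODE M21 on the mouse build GRCm38 (mm10), Ccl2 (chr11:82035571-82037453), Ccl7 (chr11:82045712-82047525) and Ccl12 (chr11:82101845-82103400) fall within 67.8 kb, all on the plus strand. Ccl3 (chr11:83647844-83649355, minus strand) and Ccl4 (chr11:83662584-83664683, plus strand) fall within 16.8 kb of each other. Cxcl2 (chr5:90903871-90905938, plus) and Cxcl10 (chr5:92346638-92348889, minus) are on chromosome 5, Il1a (chr2:129299610-129309972) and Il1b (chr2:129364570-129371139) are on the minus strand of chromosome 2 within 71.5 kb, and Tnf (chr17:35199381-35202007, minus) is on chromosome 17, which also carries Trem2 (chr17:48346401-48354147, plus).

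The promoters of Cxcl10 and Cxcl2 are shown because these genes had the lowest fitted values in knockout microglia among the 10. RefSeq's promoter table (GRCm38.p6) held 7 of the 10 members, all but Ccl2, Ccl4 and Ccl7. The stretches run from 250 bases before the RefSeq start to the base before the gene's start in GENCODE M21, chr5:92348890-92349139 on the minus strand for Cxcl10 and chr5:90903649-90903870 on the plus strand for Cxcl2. Capitals mark matches to an interferon-response element (GAAA, any 2 bases, GAAA), a κB motif (GGG, any 2 bases, TT, any base, CC) and an AP-1 motif (TGANTCA), searched on both strands, and none of the marked matches overlap.
Cxcl10: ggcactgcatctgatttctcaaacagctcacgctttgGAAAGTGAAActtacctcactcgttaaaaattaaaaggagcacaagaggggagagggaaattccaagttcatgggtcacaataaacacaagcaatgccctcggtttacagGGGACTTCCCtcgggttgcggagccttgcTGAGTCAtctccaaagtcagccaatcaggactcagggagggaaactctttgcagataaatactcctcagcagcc
Cxcl2: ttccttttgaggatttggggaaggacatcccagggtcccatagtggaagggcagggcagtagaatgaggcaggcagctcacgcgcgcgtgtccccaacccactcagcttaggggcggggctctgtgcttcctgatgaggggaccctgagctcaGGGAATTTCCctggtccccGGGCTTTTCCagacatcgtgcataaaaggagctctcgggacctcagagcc
Counted from the RefSeq start, the Cxcl10 promoter held the interferon-response letters at position -213, the κB letters at -103 and the AP-1 letters at -74. The Cxcl2 promoter held κB letters at -97 and -78. Over the 250 bases before the start of 27025 genes, 4.0% held the κB letters, 3.04% the interferon-response letters, 6.87% the AP-1 letters, 0.152% both κB and interferon-response letters, and 0.241% at least 2 κB matches. Of the other 5 promoters, only that of Il1a held any of these letters, an AP-1 match at -12. These are matches of letters in a window and not measured binding.

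The libraries held 60024793 to 91205882 UMIs over 6512 to 10582 barcodes each, and 29230 cells were kept of 40345 barcodes. Cells were clustered with the 10 members left out of the variable genes, and classes were named "-like" from marker genes. Microglia-like cells numbered 95, 48 and 14 in wild-type replicates 1, 2 and 3 and 35 and 6 in knockout replicates 2 and 3. Border macrophage-like cells numbered 52, 22 and 22 in the wild-type replicates and 27 and 7 in knockout replicates 2 and 3. Knockout replicate 3 stood apart: its 6 microglia-like cells held 48655 UMIs in all, so that 1 UMI there is a level of 20.6 CPM (the usual counts-per-total unit, here a gene's UMIs scaled by all UMIs of the class in that library) and a count of 0 allows up to 61.7 CPM. Among the markers that named the classes, P2ry12, a purinergic receptor of microglia, was found in 97.5% of microglia-like and 51.5% of border macrophage-like cells, and Pf4 in 7.07% and 100% of them. A further 159 cells with macrophage genes and little RNA (median of 1994 UMIs) were kept apart from both classes. Their clusters m4, m5 and m6 had 11, 13 and 13 markers of a class 2-fold up, enough for a name. They were set apart because their depth was far below the library median and no marker of that class was among their top genes. These cells numbered 27, 34 and 36 in wild-type replicates 1, 2 and 3 and 22 and 40 in knockout replicates 2 and 3. Between 12 and 26 barcodes were shared by each pair of libraries. Trem2 checked the labels: its level in microglia-like cells was 1415, 1556 and 1339 CPM in the wild-type replicates, and 64.1 and 82.2 CPM in knockout replicates 2 and 3.

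Across the hippocampus the members were mostly macrophage transcripts, but the 2 macrophage classes did not hold them equally. Microglia-like cells held 81.7% of all Il1a UMIs, 73.1% of Ccl4, 62.2% of Ccl3 and 54.6% of Tnf UMIs in the deposited tables. These pooled shares lean on wild-type replicates 1 and 2, which had the most microglia-like cells: by library they ran from 50.8% to 98.0% for Il1a, 36.8% to 82.9% for Ccl4, 31.5% to 73.6% for Ccl3 and 12.2% to 75.6% for Tnf. In knockout replicates 2 and 3 border macrophage-like cells held more of the Tnf UMIs (49.5% and 51.0%) than microglia-like cells (31.3% and 12.2%). Border macrophage-like cells, which were fewer with the libraries pooled, held 74.6% of the Ccl7 UMIs, 66.1% of Cxcl2, 60.1% of Ccl2 and 54.6% of Ccl12. By library these shares ran from 61.3% to 85.1% for Ccl7 and 42.7% to 69.2% for Ccl2. For Cxcl2 they ran from 33.0% to 86.1%, and for Ccl12 from 43.0% to 76.9%. In wild-type replicate 1 microglia-like cells held 44.1% of the Ccl12 UMIs, against 43.0% in border macrophage-like cells. In wild-type replicate 3 other classes held 40.2% of the Cxcl2 UMIs, against 33.0%. Cxcl10 and Il1b were the members with the largest shares outside both classes: 46.3% of Cxcl10 and 47.8% of Il1b UMIs lay in microglia-like cells, and 32.7% and 25.1% lay in neurons, glia, vessel cells and unnamed clusters. Between 6.63% and 12.01% of each member's UMIs lay in barcodes that did not pass the limits on cells or were removed as doublets.

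**Figure D1:**
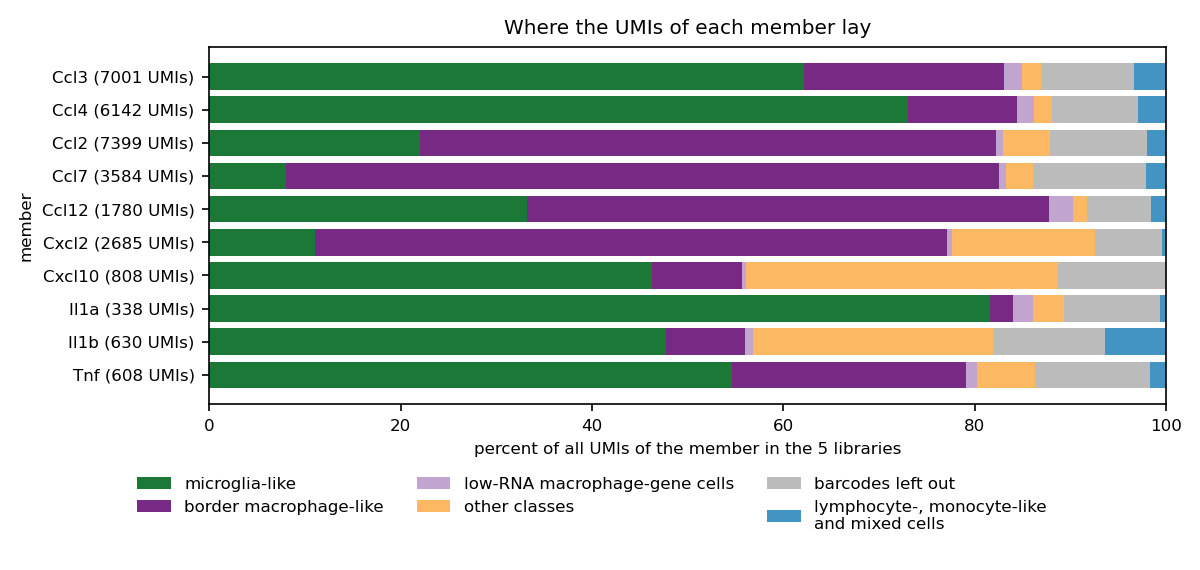
Share of each member's UMIs (percent, x axis; total UMIs beside the name) in 5 groups of cells and in barcodes that were left out, over all 5 libraries. With the libraries pooled, Il1a, Ccl4, Ccl3 and Tnf lay mostly in microglia-like cells. Within single libraries this held throughout for Il1a only. In knockout replicate 3 these cells held 36.8% of the Ccl4, 31.5% of the Ccl3 and 12.2% of the Tnf UMIs. Tnf lay more in border macrophage-like cells in both knockout libraries. Ccl7, Cxcl2, Ccl2 and Ccl12 lay mostly in border macrophage-like cells, and Cxcl10 and Il1b had the largest parts in other classes. These parts differed between libraries: Ccl12 lay about equally in both macrophage classes in wild-type replicate 1, and Cxcl2 lay more in other classes in wild-type replicate 3.

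In microglia-like cells Ccl3 and Ccl4 were the most abundant members. Ccl3 had a UMI in 90.4% of the 198 cells and Ccl4 in 74.2%, at 1814 and 1870 CPM over all libraries. Because the counting is at the 3' end, 1 captured molecule gives 1 UMI whatever the length of the transcript. Capture of different genes was not compared, so the order of genes is an order of UMIs only. Ccl2 followed with 64.6% of cells and Ccl12 with 58.1%, at 680 and 247 CPM. Tnf was found in 44.9% of cells, Il1a in 35.4%, Ccl7 in 28.8%, Cxcl10 in 21.2%, Il1b in 19.2% and Cxcl2 in 15.2%, at 115 to 156 CPM each. The last 6 genes lay closer together than their spread between libraries. Excitatory neuron-like cells, which should lack all 10 and had a similar depth (a median of 11236 UMIs a cell against 10959 in microglia-like cells), had a UMI of a given member in at most 0.284% of 7396 cells (Ccl3), and Tnf had no UMI there.

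Every cell was also thinned to 2000 UMIs, to compare shares at 1 depth. Ccl3 was then found in 76.3% of microglia-like cells, Ccl4 in 60.6%, Ccl2 in 43.4%, Ccl12 in 30.3%, Tnf in 22.7%, Il1a in 18.7%, Il1b in 16.2%, Ccl7 in 13.6%, and Cxcl10 and Cxcl2 in 11.6% each. No microglia-like cell was too shallow for this, and 217 excitatory neuron-like cells were left out. Of the other 7179 excitatory neuron-like cells, none had a UMI of Cxcl2, Cxcl10 or Il1b after thinning.

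In border macrophage-like cells Ccl2 and Ccl7 had the highest pooled levels. Over 130 cells, Ccl2 stood at 4433 CPM and in 96.2% of cells, Ccl7 at 2663 CPM and in 92.3%, Cxcl2 at 1768 CPM and in 56.2%, and Ccl12 at 968 CPM and in 76.9%. Ccl3 stood at 1459 CPM and in 83.8% of cells, and Ccl4 at 697 CPM. The order of Cxcl2 and Ccl3 differed between libraries, with Ccl3 higher in wild-type replicate 3 and knockout replicate 3. Tnf was at 148 CPM and in 44.6% of cells, against 138 CPM in microglia-like cells, but these pooled levels hide opposite orders: Tnf was lower in border macrophage-like than in microglia-like cells in all 3 wild-type libraries and higher in both knockout libraries. Il1a was nearly confined to the other class, with 8 UMIs in 4 of these 130 cells (3.08%) against 276 UMIs in 70 of 198 microglia-like cells. These classes were drawn from the same cells, so the difference is a description and carries no test.

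**Figure D2:**
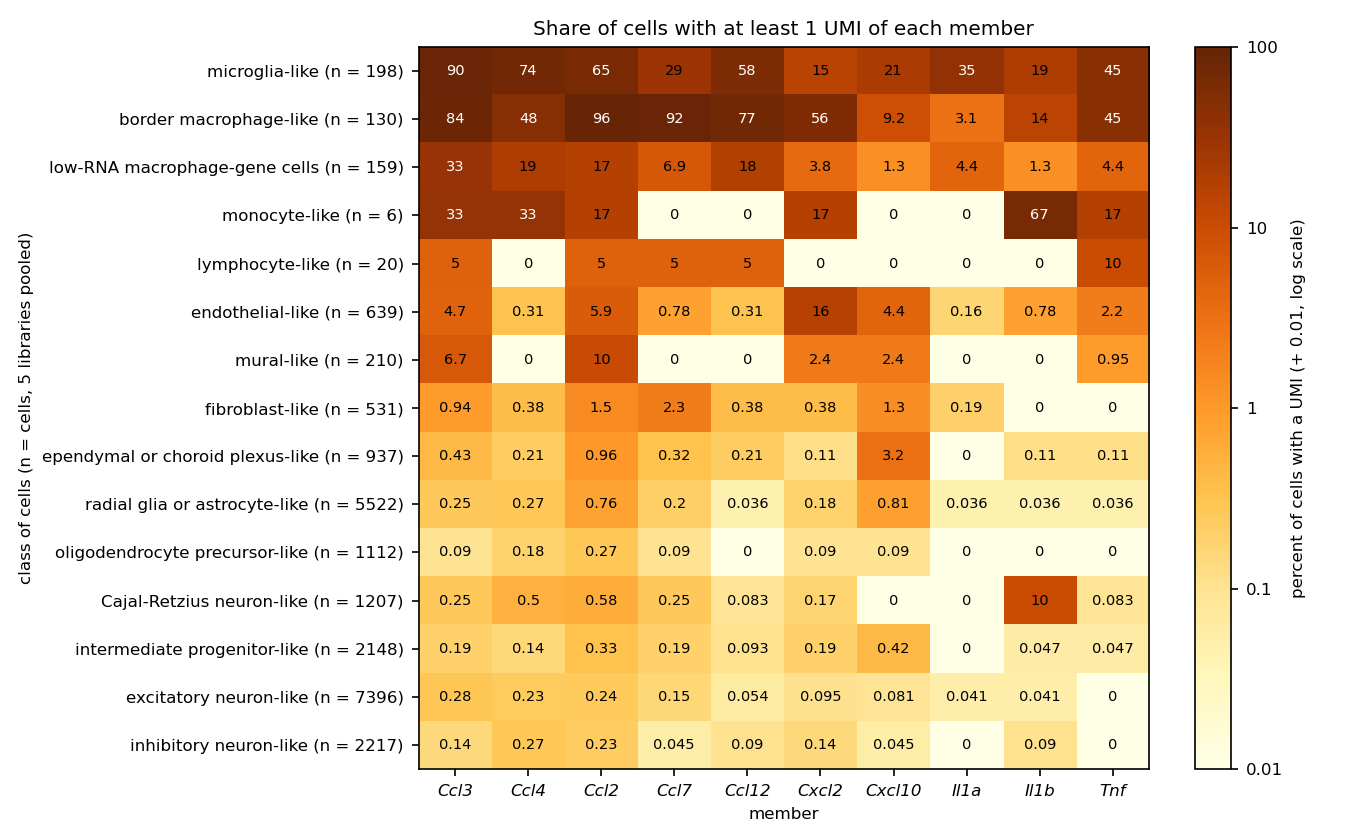
Percent of cells with at least 1 UMI of each member (numbers and colour, log scale) in 15 classes, with the 5 libraries pooled and the number of cells beside each class. The 2 top rows are the macrophage classes, and Il1b in Cajal-Retzius neuron-like cells (10.1%), Cxcl2 in endothelial-like cells (16.3%) and Cxcl10 in ependymal or choroid plexus-like cells (3.2%) stand above the rows of neurons and glia.

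Few cells carried most of the rarer transcripts. Of the 374 Cxcl10 UMIs in 198 microglia-like cells, 50% lay in 6 cells, and the same held for the 301 Il1b UMIs. For Cxcl2 it was 7 cells, for Ccl7 10, for Il1a 14 and for Tnf and Ccl12 18 each. The abundant members were spread more widely, with 50% of the UMIs in 20 cells for Ccl2, 29 for Ccl4 and 38 for Ccl3. In wild-type replicate 3 the top cell for Cxcl2 held 94.4% of its 18 UMIs and the top cell for Cxcl10 held 59.0% of its 39 UMIs. The level of these genes in a library therefore rests on a handful of cells, and the intervals given here cover counting error only.

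The microglia-like cells fell into 3 clusters, and the members differed in level between them. Cluster m3 (68 cells) had the member Il1a as its top gene by fold. The chemokine-binding receptor Ccrl2, the phosphatase Dusp2, Icam1 and Socs3 were also among its top genes. Members were left out of the clustering, but genes that vary with them across these cells, such as Dusp2, were not, so the order is a description. With the libraries pooled, m3 had 10 of 10 members above cluster m2 (87 cells), led by Gpnmb, Spp1 and Csf1, a share not counted over all genes. For Cxcl2 this rested on wild-type replicate 1, with 153 UMIs in m3 and 44 in m2, while wild-type replicate 2 had 0 in m3 and 40 in m2. Il1b stood at 359 CPM in m3 and 24.8 CPM in m2, Il1a at 265 and 35.9 CPM, Cxcl10 at 237 and 30.7 CPM, Tnf at 255 and 48.7 CPM, Ccl12 at 588 and 116 CPM, and Ccl3 at 3474 and 1236 CPM. With the libraries pooled, the dividing cluster m0 (43 cells) had the highest Cxcl10 level of the 3, at 308 CPM, in 41.9% of its cells. This order did not hold in every library. Wild-type replicate 2 had 87 of its 99 Cxcl10 UMIs in m2 and m3, while wild-type replicate 3 had 0 of its 39 there. Knockout replicate 2 stood at 23.2 CPM in m0, and the knockout mean in m3 was 70.8 CPM (n = 2). These clusters were filled unequally: m0, m2 and m3 held 23, 34 and 38 cells of wild-type replicate 1, 9, 26 and 13 of replicate 2, 4, 2 and 8 of replicate 3, 7, 24 and 4 of knockout replicate 2, and 0, 1 and 5 of knockout replicate 3. The 2 knockout libraries thus drew their microglia-like cells from different clusters.

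Members were detected together in the same cells. The median microglia-like cell had a UMI of 5 of the 10 members, 101 of 198 cells (51.0%) had at least 5, 28 cells had at least 8, and 4 cells had none. Ccl3 and Ccl4 had the highest Pearson r of log-normalised values across the 198 cells, 0.69, and 142 of the 147 Ccl4-positive cells also had Ccl3. Ccl7 was nearly nested in Ccl2, with 55 of 57 Ccl7-positive cells also positive for Ccl2. Of the other members, Il1a had the highest r with Cxcl10, 0.53: 31 of 42 Cxcl10-positive cells (73.8%) had Il1a against 25.0% of Cxcl10-negative cells. More of the 42 cells had the abundant Ccl3 (41), Ccl4 (40) or Ccl2 (32). In border macrophage-like cells the highest r was that of Ccl2 and Ccl7, 0.81 over 130 cells, while Cxcl10 and Il1a shared no cell. These values describe cells of the same 5 libraries, which share library and depth.

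The genes nearest to the members in pattern were drawn from a small set. Over the 198 microglia-like cells, values centred per library, Nfkbia, the inhibitor of NF-κB that is itself an NF-κB target, ranked first for Cxcl10 (r of 0.52), Il1a (0.53), Tnf (0.59) and Ccl12 (0.48). Nfkbid, another inhibitor of the family, ranked first for Ccl2 (0.62), and Ier3, an immediate early gene, for Ccl3 (0.50) and Ccl4 (0.58). Tnfaip3, which encodes the NF-κB feedback regulator A20, ranked first for Cxcl2 (0.50) and Il1b (0.46), and Egr3, an immediate early transcription factor, for Ccl7 (0.38).

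The genotype contrast asks whether microglia without Trem2 differ in these transcripts. For the interferon-inducible chemokine Cxcl10, microglia-like cells gave 228, 99 and 39 UMIs in wild-type replicates 1, 2 and 3 and 7 and 1 in knockout replicates 2 and 3. That is 215, 149 and 339 CPM against 13.6 and 20.6 CPM, or 235 ± 96.3 CPM (SD, n = 3) against 17.1 ± 4.91 (SD, n = 2). Every wild-type library was above both knockout libraries, though the counting interval of the lone UMI in knockout replicate 3 reached 115 CPM. The share of cells with a UMI did not separate the genotypes, at 25.3%, 27.1% and 14.3% against 5.71% and 16.7%. After thinning to 2000 UMIs it was 16.8%, 10.4% and 14.3% against 0 of 35 and 0 of 6 cells, which allow shares of up to 8.57% and 50%. In edgeR's quasi-likelihood fit over all genes, the knockout value of Cxcl10 was lower, at a log2 fold change of -3.85 with an SE of 0.52 and an adjusted p of 0.00333. Trem2 (log2 fold change of -4.39) was the only other gene called of 6494, which is 0.0308%.

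The Cxcl10 call was lost under 5 of the settings run. Without knockout replicate 2 the fold change was -3.54 with an adjusted p of 0.254 in edgeR, and without the dividing cluster m0 it was -3.30 with an adjusted p of 0.383. With a mitochondrial limit of 5%, which left no microglia-like cell in knockout replicate 3, it was -3.54 (adjusted p = 0.260 in edgeR), and under the 2 gates that pick cells by their own markers it was -3.71 and -3.72 (adjusted p = 1.00 and 0.999 in edgeR). Of the 374 UMIs, 202 came from m0, of which knockout replicate 3 had no cell. Over all settings run, in edgeR or DESeq2, the fold change lay between -3.30 and -4.11. Fewer expressing cells and less RNA per cell cannot be told apart in such summed counts.

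Cxcl2, the neutrophil chemokine, did not part the genotypes in the microglia-like class. The wild-type replicates had 217, 60.4 and 156 CPM, and knockout replicates 2 and 3 had 5.83 and 123 CPM, from 3 and 6 UMIs. Its fitted log2 fold change was -2.92 (SE 0.81, adjusted p = 1.00 in edgeR), which became -0.42 without knockout replicate 2 and -4.52 without knockout replicate 3, where it passed (adjusted p = 0.048). It also passed in edgeR with no filter on low counts (-2.91, adjusted p = 0.000236). The 2 knockout libraries were on opposite sides of the wild-type replicate 2 level. With the low-RNA clusters m5 and m6 added to the class, the Cxcl2 groups did not overlap. The levels were then 206, 54.8 and 160 CPM in the wild-type replicates against 5.30 and 46.3 CPM in knockout replicates 2 and 3. In knockout replicate 3 the Cxcl2 count stayed at 6 UMIs while the class went from 6 to 45 cells.

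Among the CCR2 ligands, Ccl12 was the second member whose groups did not overlap. The wild-type replicates had 326, 196 and 443 CPM, and knockout replicates 2 and 3 had 119 and 103 CPM, and its log2 fold change was -1.38 with an SE of 0.38. Groups that did not overlap in this direction were found for 11% of all genes tested, and in the other direction for 7.93%. Ccl2 stood at 764, 613 and 1634 CPM against 389 and 617 CPM, and Ccl7 at 152, 78.5 and 435 CPM against 38.9 and 103 CPM. Knockout replicate 3 overlapped the wild-type range in both. Their fold changes were -1.04 (SE 0.36) and -1.86 (SE 0.63), and neither they nor Ccl12 passed the edgeR test over all genes. With no filter on low counts Ccl7 passed in edgeR (-1.88, adjusted p = 0.0301), and on leaving out each library its fold change ran from -2.36 to -0.92, the latter without knockout replicate 2.

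The most abundant members, Ccl3 and Ccl4, overlapped between genotypes. Ccl3 levels were 2296, 1367 and 3234 CPM in wild-type replicates 1, 2 and 3, and 927 and 3432 CPM in knockout replicates 2 and 3. Ccl4 was at 2504, 1354 and 4138 CPM against 653 and 2610 CPM. In both genes knockout replicate 2 was the lowest of the 5 libraries and knockout replicate 3 was the highest or the second highest. The log2 fold changes were -0.19 (SE 0.39) for Ccl3 and -0.84 (SE 0.43) for Ccl4. Ccl4 moved to -0.15 without knockout replicate 2 and to -1.88 without knockout replicate 3, and passed in neither.

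The 3 cytokines also overlapped between genotypes. Il1a levels were 155, 72.4 and 261 CPM in the wild-type replicates, and 35.0 and 329 CPM in knockout replicates 2 and 3, so the knockout libraries were the lowest and the highest of all. Il1b was at 202, 51.3 and 200 CPM against 56.4 and 20.6 CPM, and 82.8% of the 29 Il1b UMIs in knockout replicate 2 came from 1 cell. Tnf was at 193, 93.6 and 252 CPM against 60.3 and 123 CPM. The log2 fold changes were -0.73 (SE 0.66), -1.43 (SE 0.55) and -1.21 (SE 0.44), and none passed.

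**Figure D3:**
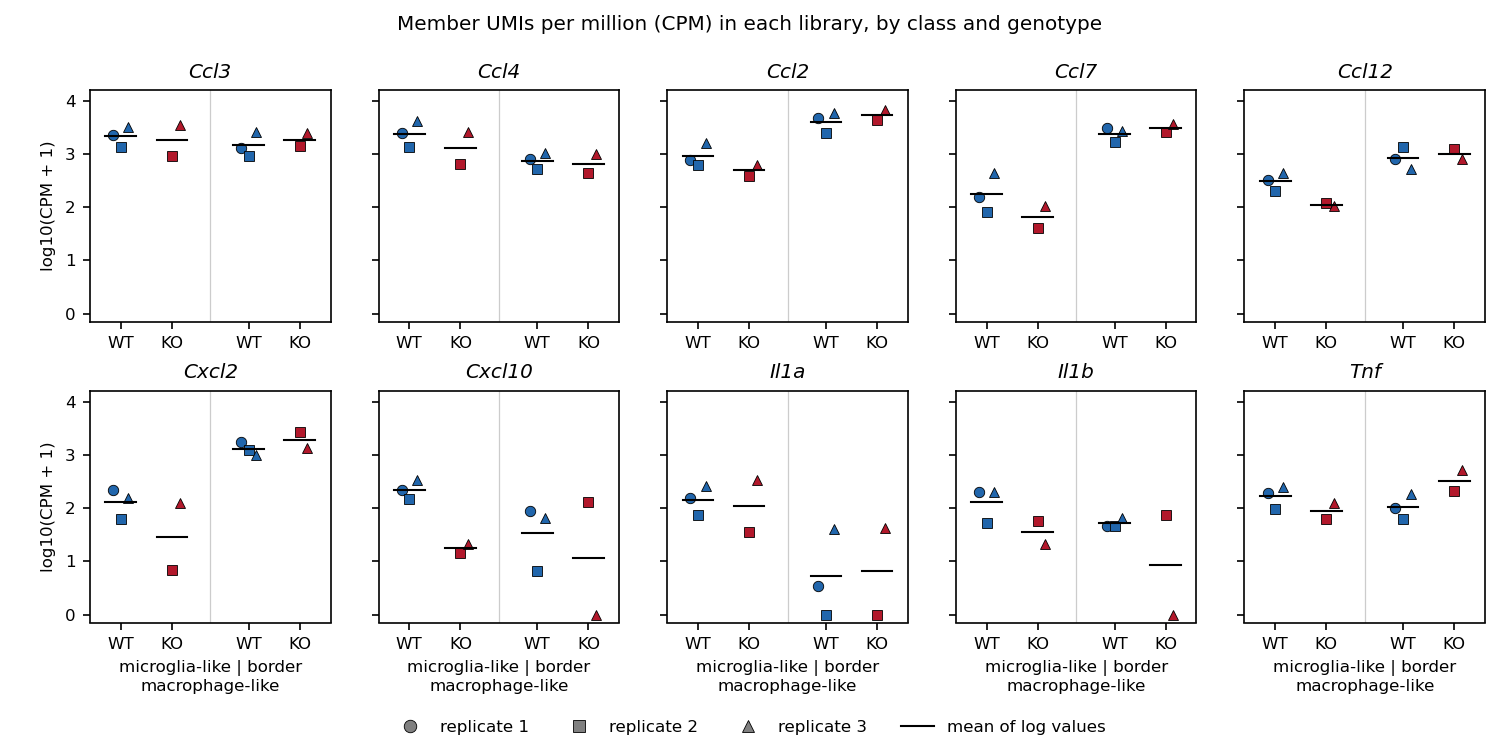
Level of each member, as log10 of CPM plus 1, in each library for microglia-like cells (left pair) and border macrophage-like cells (right pair), wild type (WT) in blue and knockout (KO) in red. Symbols give the replicate number and bars the mean of the log values; in microglia-like cells the genotypes do not overlap for Cxcl10 and Ccl12, and in border macrophage-like cells for Tnf.

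In all, 10 of 10 members had a fitted fold change below 0 in microglia-like cells, with a median of -1.29, where 52% of all genes tested were below 0 with a median of -0.02. The members were listed with this contrast known, so the count is a description. The summed level of all members moved with library as well as genotype: 7023, 4036 and 11092 CPM in the wild-type replicates and 2298 and 7481 CPM in knockout replicates 2 and 3. Knockout replicate 3, with 5 of its 6 cells in m3, lay inside the wild-type range. Which groups overlapped depended on the cells chosen. With the low-RNA clusters m5 and m6 added, knockout replicate 3 went from 6 to 45 cells and from 48655 to 129453 UMIs. Wild-type replicate 1 went from 95 to 118 cells and from 1059437 to 1124128 UMIs. All low-RNA cells together held the members at 1113 CPM, against 5390 CPM in microglia-like cells. With these clusters added, the groups of Ccl2, Ccl4, Ccl7, Ccl12, Cxcl2, Cxcl10 and Tnf did not overlap, and those of Ccl3, Il1a and Il1b did. The part of the uneven addition of cells in this was not tested. Under the per-cell marker gate the Il1a groups were apart as well, and those of Ccl12 overlapped. That gate took 67 cells with 897409 UMIs in knockout replicate 3, and 168 cells with 2301152 UMIs in wild-type replicate 1. Il1a in knockout replicate 3 thereby went from 329 CPM on 16 UMIs to 18.9 CPM on 17 UMIs. How far other cells taken by the gate moved these levels was not tested. The share of all genes without overlap was not counted for these choices. Markers of border macrophages, which carry more Ccl2, Ccl7, Ccl12 and Cxcl2, summed to 522 to 795 CPM in wild-type and 447 to 781 CPM in knockout microglia-like cells, against 19278 CPM or more in border macrophage-like cells, and their part in the contrast was not tested. Fos, an immediate early gene, stood at 572, 515 and 435 CPM against 225 and 411 CPM, and its relation to the members' contrast was not tested either.

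Other genes of these pathways, from lists that were also drawn up with earlier results known, gave no call in microglia-like cells. Of 17 NF-κB feedback and target genes that passed the filter on low counts, 14 were below 0 with a median log2 fold change of -0.54, among them Rela (-1.13), Nfkb2 (-1.35), Gadd45b (-1.51) and Nfkbia (-0.57). The filter passed only 6 of 23 listed interferon-induced genes and 4 of 20 chemokine receptors. It passed 4 of 21 other chemokine ligands and 6 of 18 other cytokines. Over all genes tested, 52% were below 0. Of the 6 interferon-induced genes, 6 were below 0 with a median of -0.66, among them the transcription factor Irf1 (-1.19). Of 21 immediate early genes 18 were below 0 (median of -0.51; Fosb -2.05), of 10 dividing-cell genes 9 were (median of -0.48; Mki67 -0.85), and of 4 chemokine receptors 4 were (median of -0.78; Ccrl2 -2.10). IL-1 and TNF receptors and processing genes were split, with 4 of 10 below 0 and a median of 0.08. Other chemokine ligands had 3 of 4 below 0, Pf4 with the largest value (-3.26, from 27, 40 and 0 UMIs against 2 and 0), and other cytokines 3 of 6.

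In border macrophage-like cells no member was called with all 5 libraries in the unblocked fit. Of the 9 that passed the filter (Il1a did not), 8 had a fold change above 0, with a median log2 fold change of 0.28. In the edgeR test Trem2 was the only call among 3330 genes (0.03%), with 115 genes at an unadjusted p under 0.05. DESeq2 also called only Trem2. Tnf had the largest value: 98.4, 62.2 and 184 CPM in wild-type replicates 1, 2 and 3 against 208 and 507 CPM in knockout replicates 2 and 3, from 49 and 25 UMIs, and the log2 fold change was 1.46 with an SE of 0.40 (adjusted p of 1.00). Without knockout replicate 2 Tnf passed in edgeR (2.13, adjusted p = 0.00575), and without knockout replicate 3 it was 0.96. The Tnf groups did not overlap, as was so in this direction for 9.88% of genes tested. Ccl2 stood at 4647, 2433 and 5752 CPM against 4357 and 6816 CPM, and Cxcl2 at 1761, 1234 and 993 CPM against 2677 and 1359 CPM, and both overlapped. Cxcl10 had 37, 1 and 8 UMIs in the wild-type replicates and 30 and 0 in knockout replicates 2 and 3, and 3 cells held 50% of them.

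The difference between the 2 classes was tested in 1 model of both sums with the library as a block, so each library is its own control. Of 4384 genes 8 were called (0.182%), all with the lower knockout effect in microglia-like cells, and 6 of the 8 were members. The log2 difference of the effects was -4.79 for Cxcl10 (SE 0.66, adjusted p = 2.72e-07), -3.63 for Cxcl2 (SE 0.56, adjusted p = 8.07e-06), -2.56 for Tnf (SE 0.42, adjusted p = 2.43e-05), -1.93 for Ccl7 (SE 0.42, adjusted p = 0.0106), -1.30 for Ccl2 (SE 0.29, adjusted p = 0.0106) and -1.71 for Ccl12 (SE 0.40, adjusted p = 0.0286), all in edgeR. The other 2, named after their values were seen, were Cdkn1a, a cell-cycle inhibitor (-2.29), and the border macrophage chemokine Pf4 (-3.33). Il1b (-1.87), Ccl4 (-0.72), Ccl3 (-0.65) and Il1a (-0.52) did not pass. This contrast contains the microglial one that was known when the members were listed, so it is not independent of their choice.

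These calls depended on the tool and on libraries. DESeq2 called 0 genes in the same model, with 52 at an unadjusted p under 0.05, against 177 in edgeR, and its log2 differences were -4.72 for Cxcl10 (SE 1.27), -2.53 for Tnf (SE 0.58, adjusted p = 0.232) and -1.29 for Ccl2 (SE 0.37). Without knockout replicate 2 edgeR called 4 genes, of which Tnf (-2.70, adjusted p = 0.0377) was the only member, and the Cxcl10 difference turned to 3.82, with no Cxcl10 UMI in the border macrophage-like cells of knockout replicate 3. For Cxcl2 the same step moved the difference to -0.0089, and leaving out knockout replicate 3 instead moved it to -5.34. Without wild-type replicate 3 edgeR called 5 genes, with Cxcl10, Cxcl2 and Tnf among them. Without the dividing clusters it called Tnf and Cdkn1a. Tnf passed in edgeR under every setting run for this difference, and in DESeq2 it did not.

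**Figure D4:**
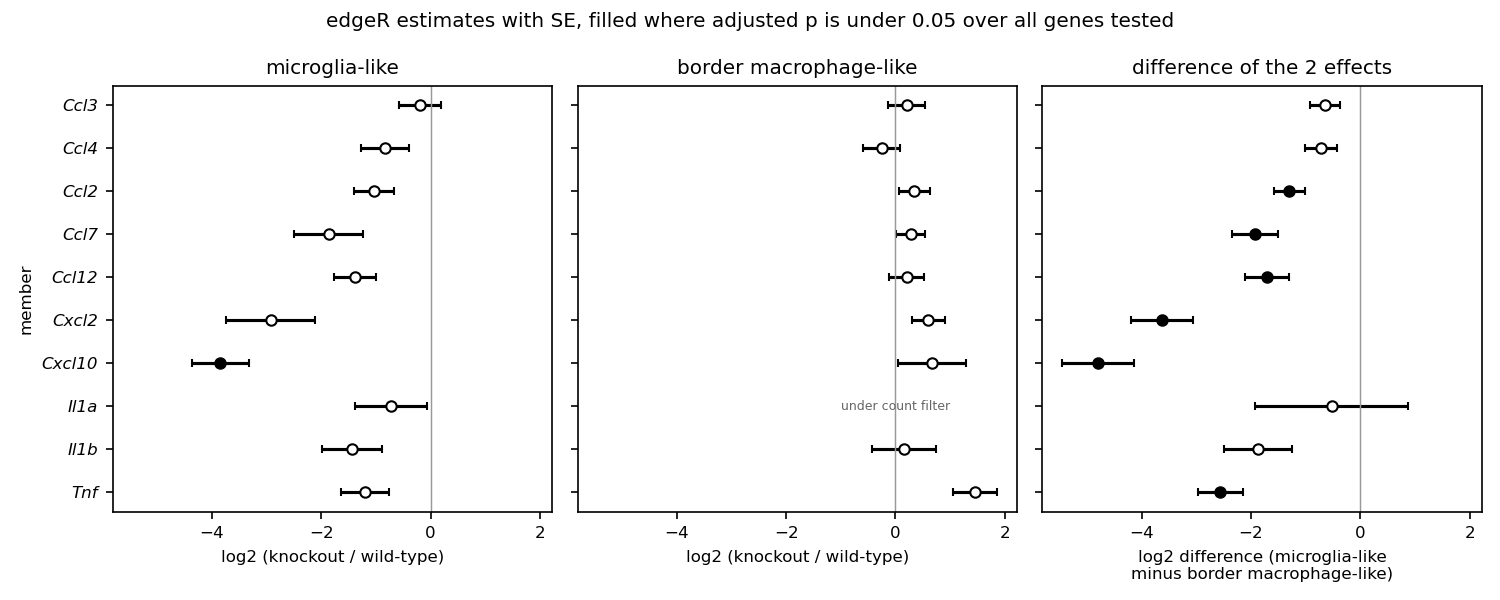
Fitted log2 effect of the knockout for each member (points, with the SE as bars) in microglia-like cells, in border macrophage-like cells, and the difference of the effects, in edgeR; filled points passed at an adjusted p under 0.05 over all genes tested. In microglia-like cells all 10 points lie below 0 and 1 is filled, and 6 of the 10 differences are filled.

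Outside the macrophages, Il1b was found in Cajal-Retzius neuron-like cells, the early-born Reln-secreting neurons of the outer hippocampal layers. It had 135 UMIs in 122 of 1207 cells (10.1%, 95% exact binomial interval 8.46% to 11.9%), against 3 of 7396 excitatory neuron-like cells (0.0406%) of similar depth (a median of 12778 UMIs a cell against 11236). The share was 9.28%, 9.58% and 9.52% in wild-type replicates 1, 2 and 3 and 11.7% and 11.2% in knockout replicates 2 and 3. Both knockout libraries were above every wild-type library, by less than the counting intervals of the libraries, and this difference was not tested. After thinning to 2000 UMIs it was 1.85% of 1187 cells against 0 of 7179 excitatory neuron-like cells. Il1b-positive cells did not carry more microglial RNA than the others: 11.5% of them had a UMI of any of 14 microglial markers against 14.6% of the Il1b-negative cells, and 0 of 122 had 3 or more. The level was low, 8.68 CPM with at most 4 UMIs in a cell, against 125 CPM in microglia-like cells. The antisense gene Il1bos, which overlaps Il1b, had 2 UMIs in this class.

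Cxcl2 was found in 104 of 639 endothelial-like cells (16.3%), at 346 UMIs and 22.3 CPM. The share ranged from 14.5% to 18.9% over the 5 libraries, and 59 cells had 2 or more UMIs. The positive cells were deeper, with a median of 39978 UMIs against 14139 in negative cells, and 76.9% of them had a UMI of a microglial marker against 49.2%. Of the 104 positive cells 8 had 3 or more microglial markers, as did 8 of the 535 negative cells, and 35.6% had another member against 11.96%. The microglial marker level was 59.1 against 48.8 CPM, and the part of microglial RNA in the Cxcl2 share was not tested. After thinning to 2000 UMIs the share was 3.08% of 584 cells. Cxcl2 shares a run of 157 identical bases with Cxcl3 in GENCODE M21 transcripts, and Cxcl3 had 3 UMIs in all barcodes, so reads of the 2 may not be told apart.

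Of the 10 members, Cxcl10 had the largest share of its UMIs in other classes, 32.7%. It was found in 30 of 937 ependymal or choroid plexus-like cells (3.20%), 28 of 639 endothelial-like cells (4.38%), 5 of 210 mural-like cells (2.38%) and 45 of 5522 radial glia or astrocyte-like cells (0.815%), against 6 of 7396 excitatory neuron-like cells (0.0811%). In the ependymal or choroid plexus-like class, 18 of the 30 positive cells had 2 or more UMIs, and 3 of the 30 (10%) had 3 or more microglial markers against 3.20% of negative cells. Knockout replicate 3, with 1 Cxcl10 UMI in its microglia-like cells, had 18 in ependymal or choroid plexus-like cells and 20 in radial glia or astrocyte-like cells. Cxcl10 lies inside Art3 on the opposite strand, and Art3 had 575 UMIs in endothelial-like, 236 in ependymal or choroid plexus-like and 1 in microglia-like cells, and no source used here says whether the counting used strand, so the counts outside macrophages are less certain.

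**Figure D5:**
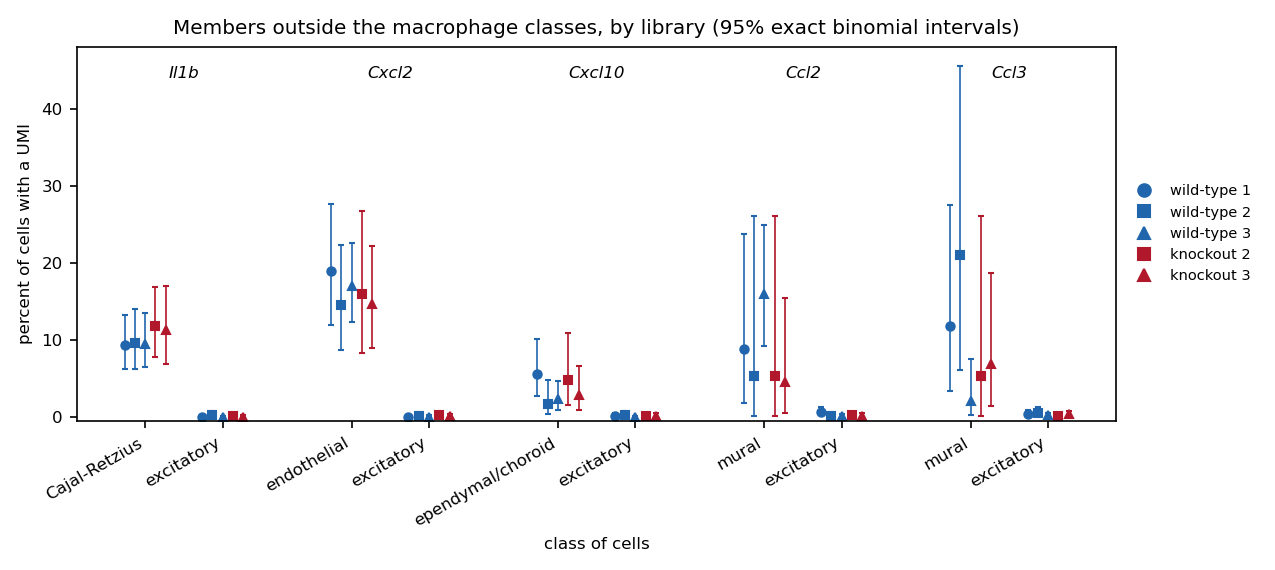
Percent of cells with a UMI (y axis, with 95% exact binomial intervals for counting error) for Il1b, Cxcl2, Cxcl10, Ccl2 and Ccl3 in a class outside the macrophages and in excitatory neuron-like cells, in each library (blue, wild type; red, knockout; symbols give the replicate). Il1b in Cajal-Retzius neuron-like cells lies between 9.28% and 11.7% in all 5 libraries, and the excitatory neuron-like cells lie near 0.

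The CCR2 ligand Ccl2 was found in 22 of 210 mural-like cells (10.5%), the contractile cells of vessel walls, and Ccl3 in 14 of them (6.67%). Ccl2 ranged from 4.55% to 15.96% and Ccl3 from 2.13% to 21.1% over the 5 libraries. Both were also found in the 639 endothelial-like cells, which were deeper (a median of 16968 UMIs against 5274 in mural-like cells). There the mean share with Ccl2 was 7.51% in wild-type and 3.39% in knockout libraries, and with Ccl3 4.86% and 4.70%. These shares were not tested between genotypes. None of the 22 Ccl2-positive or 14 Ccl3-positive mural-like cells had 3 or more microglial markers. Only 2 of 188 Ccl2-negative and 2 of 196 Ccl3-negative mural-like cells did, so this count is too low to set positive and negative cells apart. The 6 monocyte-like cells held 31 Il1b UMIs in 4 cells (771 CPM), and a further 20 lymphocyte-like cells held none.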

How the data were processed

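Single-cell RNA was measured in 5 libraries of mouse hippocampus. The deposited values are whole-number UMI counts per gene and barcode, made with Cell Ranger 6.1 on mm10 per the submitters' processing notes; no source used here names the annotation release. Barcodes with at least 500 genes, 1000 UMIs and at most 15% mitochondrial UMIs were kept. Doublets were scored with Scrublet in scanpy 1.11.5 and removed; in 3 libraries the automatic limit marked under 0.5% of barcodes, so cells were taken out from the top score down to the number expected for the load. Cells were clustered (2000 variable genes, 30 components, Leiden with leidenalg 0.10.2), and a cluster was named where at least 3 markers of a class were 2-fold up. Macrophage clusters were clustered again. A cluster with depth far below the library median was not given the name where no marker of that class was among its top genes.

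Each class gave 1 summed count profile in a library, and these sums entered edgeR 4.0.16 (quasi-likelihood test, Benjamini-Hochberg adjustment over all genes, threshold 0.05), with DESeq2 1.42.0 as an alternative. The scripts were tested on simulated data. Genes are named as the 10 listed members and, from each pathway list, those with the smallest p. Intervals are exact Poisson or binomial at 95% and cover counting error only; a count of 0 allows up to 3 counts. The members and gene lists were chosen with earlier results of these data known. Alternatives were other tools, filters, gates, thinning, a replicate block and leaving out each library.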

Additional observations from a re-analysis of the deposited data

Results flagged for a closer look

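In edgeR the effect of the knockout was called as different between microglia-like and border macrophage-like cells for 8 genes, tested as an interaction over all genes. This contrast contains the microglial one that was known when the members were listed. The log2 difference, microglia-like minus border macrophage-like, was -4.79 for Cxcl10, -3.63 for Cxcl2, -2.56 for Tnf, -1.93 for Ccl7, -1.71 for Ccl12 and -1.30 for Ccl2. Outside the list it was -3.33 for Pf4 and -2.29 for Cdkn1a. DESeq2 called 0 genes in the same comparison, with 52 at an unadjusted p under 0.05. Without knockout replicate 2 the log2 difference was 3.82 for Cxcl10 and -0.0089 for Cxcl2. Without the dividing clusters edgeR called only Tnf and Cdkn1a.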

How the results depend on the processing

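In microglia-like cells 2 genes were called, against 14 with no filter on low counts, 1 with a mitochondrial limit of 5% (which left no microglia-like cell in knockout replicate 3, so that library was dropped), 0 with each of the 2 per-cell marker gates, and 1 without the dividing cluster m0. Leaving out each library gave 2 to 4 calls. In border macrophage-like cells 1 gene was called, against 2 with no filter and 1 to 5 on leaving out each library. The difference gave 8 calls, against 0 in DESeq2, 3 with the low-RNA clusters added, 2 without the dividing clusters, and 4 to 8 on leaving out each library. Where leaving out a library left 1 knockout library, that library was assumed to vary like the others.

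Signs turned on leaving out a library for these log2 values, given as lowest and highest. In microglia-like cells they were -1.91 to 1.06 for Il1a and -1.18 to 0.45 for Ccl3. In border macrophage-like cells they were -0.076 to 1.01 for Cxcl2, -6.51 to 1.10 for Cxcl10, -0.23 to 0.59 for Ccl12, -0.16 to 0.70 for Ccl3 and -0.81 to 0.28 for Ccl4. For the difference they were -2.41 to 2.74 for Il1a, -2.19 to 4.02 for Il1b, -5.87 to 3.82 for Cxcl10 and -1.85 to 0.0087 for Trem2. Il1b in border macrophage-like cells was 0.15, against -0.14 in DESeq2. The cause was not tested.

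The replicate numbers are shared by 2 pairs of libraries, whose deviations correlated at 0.0969 and 0.0584, and no label ties them. With the replicate block 15 genes were called in border macrophage-like cells (7 higher, 8 lower; Ccl2, Ccl7, Cxcl2 and Tnf among them), Il1b there was -0.030, and 2 were called in microglia-like cells.

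The median share of positive cells over the members in microglia-like cells was 20.7% after thinning to 2000 UMIs, 10.9% after thinning to 1000 and 27.5% when 2 UMIs were required. In border macrophage-like cells it was 42.2%, 31.5% and 43.8%. The median level in microglia-like cells was 56.8 CPM under the per-cell marker gate. These alternatives for the difference, the dividing clusters, the low-RNA clusters and 1000 UMIs were chosen after seeing the data.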
